A study of Bos taurus with 6 samples.

Results

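NR3C2 (ENSBTAG00000027182), the gene of the mineralocorticoid receptor, is 1 of the 24579 genes whose reads were counted in mammary biopsies of 6 Holstein heifers. The gene was chosen by its lower level in the heat stressed group of these same 6 heifers, so its level, its difference between groups and its rank among genes are given as a description and were not tested. The 3 in utero heat stressed heifers (IUHT-H; 9196, 9203 and 9204) were carried by dams that had shade but no active cooling in about the last 6 to 7 weeks of gestation. The 3 in utero cooled heifers (IUCL-H; 9202, 9214 and 9223) were carried by dams that also had fans and water soakers in that period. All 6 heifers were born in 2014, were managed alike from birth, and were biopsied in 2016 on day 21 of their first lactation. The treatment was therefore given to the dam, and each biopsy is a mixture of all cells of the gland.

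The mineralocorticoid receptor is a nuclear receptor that binds aldosterone and, with similar affinity, cortisol. Without hormone it is held by heat shock proteins in the cytoplasm, and after binding it moves to the nucleus and regulates genes there. In tissues such as the kidney tubule it is known for raising sodium uptake through the epithelial sodium channel and the sodium-potassium pump, where an enzyme that inactivates cortisol keeps the receptor free for aldosterone. The close relative NR3C1, the glucocorticoid receptor, mediates the actions of cortisol that support milk secretion. No sequence of the gene or its protein was analysed here.

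In the biopsies of IUHT-H, NR3C2 was below its level in IUCL-H. The number of reads counted on NR3C2 was 1177, 1042 and 819 in IUHT-H 9196, 9203 and 9204. The number was 1828, 2293 and 2416 in IUCL-H 9202, 9214 and 9223. Total counts also differed between the groups, from 75754791 to 84969285 in IUHT-H and from 91696849 to 101361294 in IUCL-H, so every IUHT-H library was smaller than every IUCL-H library. The counts were therefore expressed as CPM, the count for each 1000000 counts of a library, with edgeR's TMM factors, which ranged from 0.812 to 1.189 and correct for a few abundant genes taking up a library.

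After TMM normalization NR3C2 had 13.1, 11.1 and 11.9 CPM in IUHT-H 9196, 9203 and 9204. The level was 18.2, 25.4 and 27.5 CPM in IUCL-H 9202, 9214 and 9223. All IUHT-H values were below all IUCL-H values, with 5.11 CPM between the highest IUHT-H (9196) and the lowest IUCL-H (9202). The group means were 12.01 ± 0.99 CPM for IUHT-H and 23.7 ± 4.91 CPM for IUCL-H (SD of 3 heifers). The log2 fold change was -0.98 (standard error 0.17), which places IUHT-H at 0.507 of the IUCL-H level. In a biopsy of mixed cells, fewer cells that express NR3C2 and less NR3C2 RNA per cell cannot be told apart.

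Among the 14724 genes kept after low counts were removed, 2.92% had all IUHT-H values below all IUCL-H values, and nothing is read from the separation of NR3C2, which chose it. In edgeR's quasi-likelihood test, 0.428% of the genes were at P ≤ 0.01, the cut-off of the study, with 42 genes higher and 21 lower in IUHT-H. After adjustment 0 genes were below 0.05 in that test, where 374 genes had an unadjusted P below 0.05, whereas 9 genes passed the adjusted limit in edgeR's exact test, 11 in its likelihood ratio test and 16 in DESeq2.

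**Figure D1:**
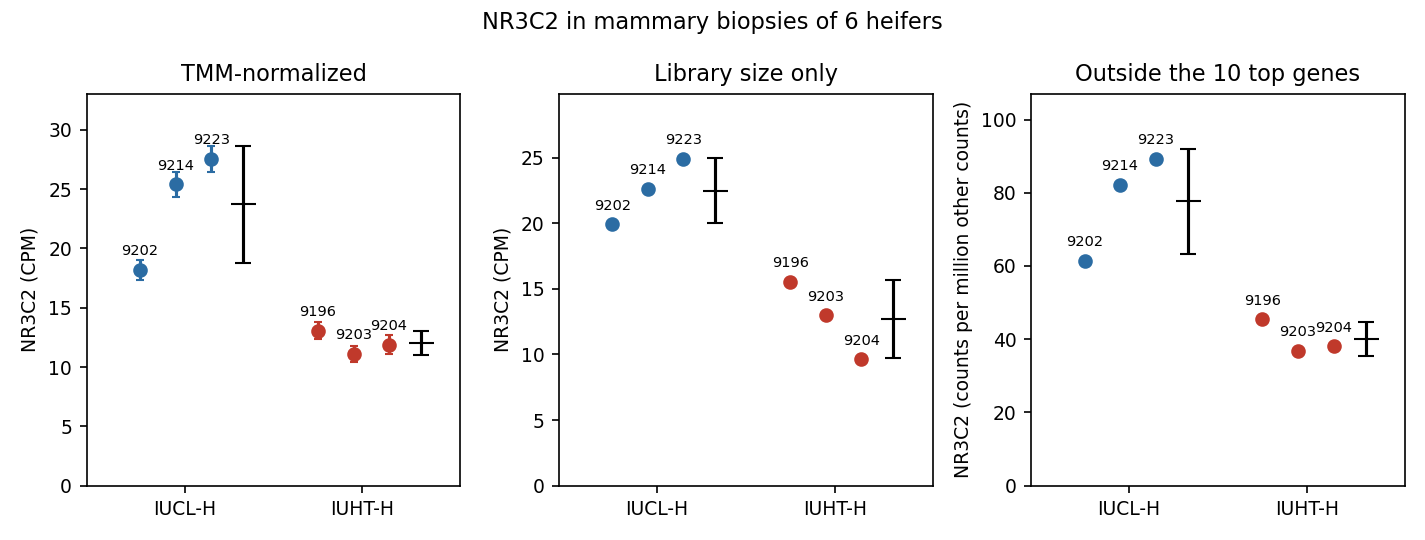
NR3C2 in each of the 6 heifers (points, labelled with the heifer's number), in TMM-normalized CPM, in CPM by library size only, and in CPM of the counts outside the 10 most abundant genes. Black bars are the mean ± SD of 3 heifers, and the thin bars in the TMM panel are exact Poisson 95% intervals of the count. In each panel the 3 IUHT-H lie below the 3 IUCL-H, and IUCL-H 9202 is the lowest of its group.

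The counts were large enough that counting error was a small part of the spread between heifers. The exact Poisson 95% interval, which covers counting error only, ran from 12.3 to 13.8 CPM in IUHT-H 9196 and from 17.3 to 19.0 CPM in IUCL-H 9202, the closest heifers of the 2 groups. The coefficient of variation was 20.7% among IUCL-H and 8.24% among IUHT-H, where counting error would give 2.14% and 3.14%. With TMM factors, heifer 9202 lay well below the other IUCL-H and nearer to the closest IUHT-H than to them. By library size only, 9202 (19.9 CPM) was nearer to IUCL-H 9214 (22.6 CPM) than to IUHT-H 9196 (15.5 CPM).

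How the spread was divided between the groups depended on the scaling. By library size only, NR3C2 had 15.5, 12.998 and 9.64 CPM in IUHT-H 9196, 9203 and 9204. The IUCL-H 9202, 9214 and 9223 then had 19.9, 22.6 and 24.9 CPM. On this scale the SD was larger among IUHT-H, 2.96 CPM, and smaller among IUCL-H, 2.49 CPM. The log2 fold change was then -0.82, while the median of all genes moved to 0.13, from 0.0028 with TMM. Relative to the median of all genes, the decrease of NR3C2 was thus nearly the same size on both scales. As CPM of the counts outside the 10 most abundant genes, the groups were also apart, with 40.1 ± 4.65 in IUHT-H and 77.6 ± 14.4 in IUCL-H (SD of 3 heifers).

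A measure that needs no scaling is the position of NR3C2 among the other genes of the same library. In IUCL-H 9202, 9214 and 9223 the NR3C2 count was above that of 75.9%, 81.9% and 83.7% of the genes tested. In IUHT-H 9196, 9203 and 9204 it was above that of 67.0%, 62.6% and 64.3%. The groups were again apart in these counts, which are the same that chose the gene, and 9202 was again the IUCL-H closest to the IUHT-H. The position rests on raw counts and so also on the length of each gene's transcripts, whose use was not compared between heifers.

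NR3C2 ranked 57 of 14724 genes by the size of its change relative to its within-group SD. On the log2 CPM scale the groups differed by -0.96 and the within-group SD was 0.24, a ratio of -4.01. The within-group SD was near the middle of all genes, larger than that of 52.2% of them, and the mean level was above that of 74.7% of them. The gene reached its rank by a large change with a spread near the middle of all genes, which were not matched for abundance. The 56 genes ranked above it mostly had small changes with very small spreads, with a median absolute change of 0.308 and a median SD of 0.0591 on the log2 scale. In 37 of these 56 genes the absolute change was below 0.5.

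The genes next to NR3C2 in this ranking show the same contrast. The genes ranked 54, 55 and 56 had a change over SD of 4.03, -4.02 and 4.02, and the genes ranked 58, 59 and 60 had 3.998, -3.98 and -3.92. These 6 genes have no name in the tables used here. Their differences between groups were between -0.30 and 0.54 on the log2 CPM scale, all smaller in size than the -0.96 of NR3C2. Among all genes ranked, 7 others had both an absolute change and a change over SD at least as large as those of NR3C2. Of these, BOLA (ENSBTAG00000022590), of the bovine leukocyte antigen complex, was the only gene with a mean of at least 1 CPM. Its difference was -2.49 with a within-group SD of 0.33 on the log2 scale, and its reads may be shared with close relatives of the same family. The limits on change and on change over SD were those of NR3C2 itself, in the contrast that chose it. Nothing is therefore read from how few genes passed both. By the F statistic of edgeR's quasi-likelihood fit, which moderates each gene's variance towards that of genes of like abundance, NR3C2 ranked 5. This rank also moved with the libraries: by p-value it was 48 without IUHT-H 9204, 14 without IUHT-H 9196, 16 without IUHT-H 9203, 10 without IUCL-H 9214, 7 without IUCL-H 9223 and 3 without IUCL-H 9202. It was 24 by library size only.

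**Figure D2:**
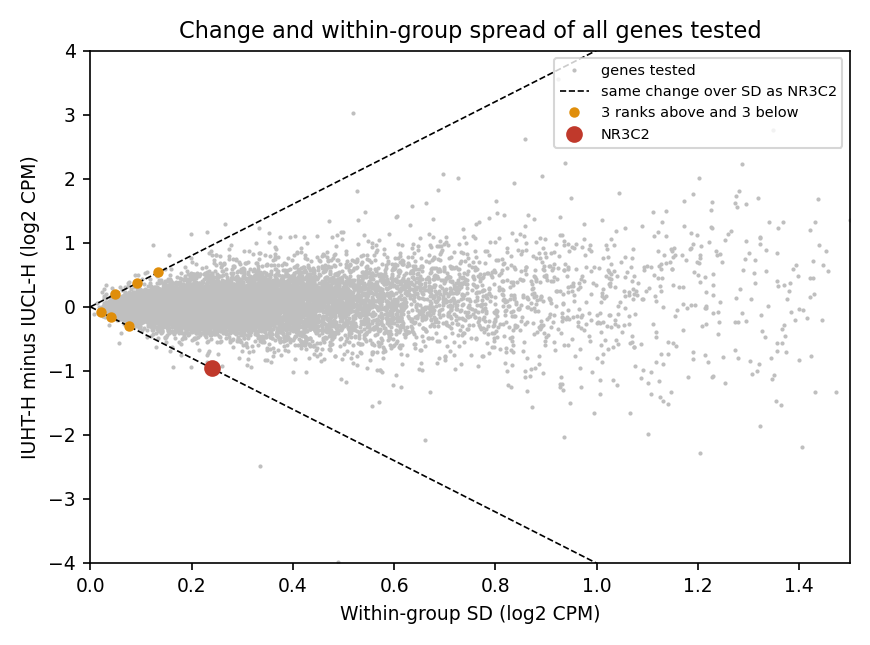
Difference between IUHT-H and IUCL-H against the within-group SD, both in log2 CPM, for the genes tested (grey), NR3C2 (red) and the 6 genes ranked next to it (orange). Dashed lines mark the change over SD of NR3C2, -4.01, and its mirror image above 0, and 126 genes lie outside the axes. NR3C2 lies at an SD of 0.24, farther right on the line than its neighbours in rank.

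The rank moved much more than the fold change. Leaving out 1 heifer at a time, the fold change on the log2 scale stayed between -1.14 (without IUCL-H 9202) and -0.86 (without IUCL-H 9223), but the rank ran from 27 (without IUCL-H 9202) to 468 (without IUHT-H 9204). It was 210, 211, 156 and 209 without IUCL-H 9214, IUCL-H 9223, IUHT-H 9196 and IUHT-H 9203. Under the other ways of processing the counts the log2 fold change was between -0.98 and -0.82. In each of these fits, and without any 1 heifer, all remaining IUHT-H were below all remaining IUCL-H. That rests on the same separation that chose the gene, and nothing is read from it.

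**Figure D3:**
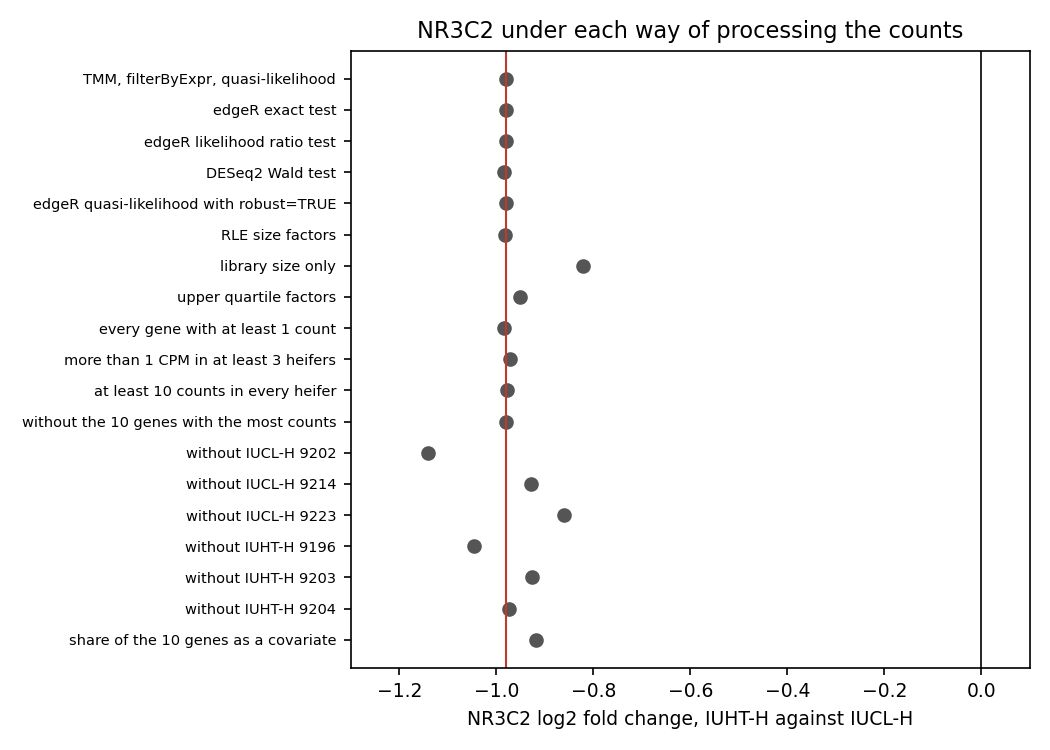
NR3C2 log2 fold change (IUHT-H against IUCL-H, 3 heifers per group unless 1 is left out) under each test, normalization, filter and left-out heifer. The red line marks the value of -0.98 with TMM factors, and the black line marks 0. The points run from -1.14 to -0.82.

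Milk protein and other abundant transcripts fill most of a lactating mammary library, and the 10 genes with the most counts, which carry no name in the tables used here, took 65.8%, 64.7% and 74.7% of the counts of IUHT-H 9196, 9203 and 9204. They took 67.6%, 72.5% and 72.1% of the counts of IUCL-H 9202, 9214 and 9223. The share overlapped between the groups, with IUHT-H 9204 the highest of all. The mean share was 68.4 ± 5.48% in IUHT-H and 70.7 ± 2.73% in IUCL-H (SD of 3 heifers), a difference of -2.30 percentage points (exact permutation test over heifers, two-sided, p = 0.6, where the smallest p for 3 against 3 is 0.1). That difference ran from -5.45 points without IUHT-H 9204 to -0.448 points without IUHT-H 9203.

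The 3 heifers with the lowest shares had less NR3C2 than IUCL-H 9214 and 9223, whose shares were higher, but IUHT-H 9204 went against that order. Heifer 9204 combined the highest share with 11.9 CPM, within the range of the other IUHT-H. Its nearest heifer by share, IUCL-H 9214, had 25.4 CPM. At the low end of the share, IUHT-H 9196 had 13.1 CPM at 65.8% and IUCL-H 9202 had 18.2 CPM at 67.6%. Pearson's r between the share and the log2 CPM of NR3C2 was 0.43 and Spearman's coefficient was 0.37 over the 6 heifers. Without the 2 heifers farthest from the median share, IUHT-H 9203 and 9204, r was 0.97 and Spearman's coefficient 0.80 over the remaining 4. Of these, the only IUHT-H, 9196, had both the lowest share and the lowest NR3C2, so share and group cannot be told apart in that value. Leaving out 1 heifer at a time gave r from 0.19 to 0.98, so the pooled value rested on single heifers, and by library size only r was 0.03. These correlations are given with no p-value, because the gene was chosen by its group difference and because level and share come from the same library. With the share as a covariate in the fit, added with the results in view, the log2 fold change of NR3C2 was -0.92 (standard error 0.18, with 3 residual degrees of freedom).

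Total count moved with NR3C2 as well, with r = 0.90 and a Spearman coefficient of 0.77 over the same 6 heifers. Since the totals of the 2 groups do not overlap, sequencing depth and treatment group cannot be told apart in that relation.

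**Figure D4:**
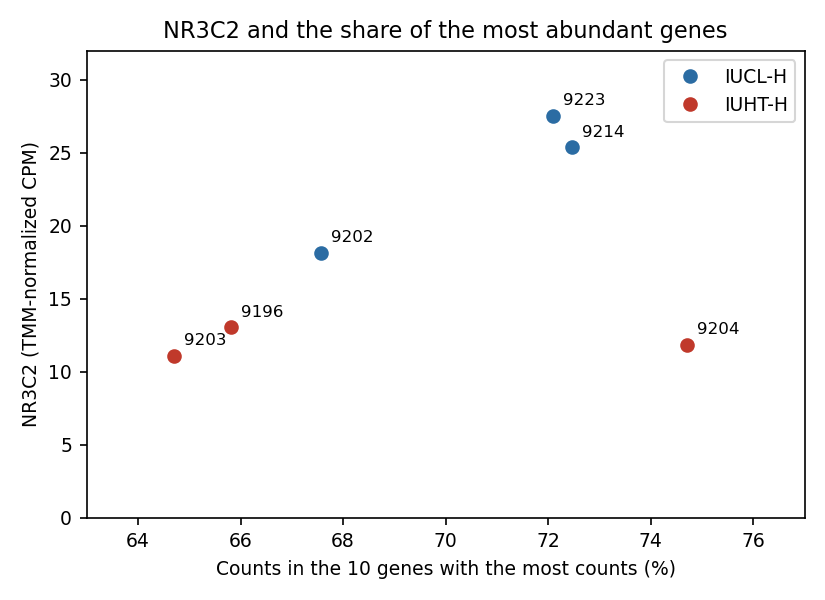
NR3C2 in TMM-normalized CPM against the percentage of a heifer's counts in the 10 genes with the most counts, 1 point per heifer. NR3C2 rises with the share from IUHT-H 9203 (11.1 CPM at 64.7%) to IUCL-H 9223 (27.5 CPM at 72.1%), while IUHT-H 9204 lies apart at 11.9 CPM and 74.7%. That rise passes from IUHT-H to IUCL-H, so share and group cannot be told apart in it.

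The genes whose levels were most like that of NR3C2 are given as a description, since they are the extremes of many values over few heifers. Likeness was measured as Pearson's r of log2 CPM over the 6 heifers among 11897 genes with a mean of at least 1 CPM. In 0.698% of these genes r was above 0.9, and in 0.698% it was below -0.9. The highest value, 0.999, belonged to the unnamed gene ENSBTAG00000011471. Its level was at 14.1, 13.3 and 13.6 CPM in IUHT-H 9196, 9203 and 9204 and, in IUCL-H 9202, 9214 and 9223, at 15.8, 18.4 and 18.9 CPM, with 9202 again the lowest IUCL-H. Its log2 fold change was -0.37 (standard error 0.11), so it had the order of NR3C2 with a smaller range. ENSBTAG00000004551, also unnamed, followed with r = 0.989, and its groups differed by -0.27 in log2 fold change (standard error 0.10).

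The only named gene among the 5 most alike was ABCC10 (ENSBTAG00000005842), a transporter of the ATP-binding cassette family, with r = 0.98. Only genes that the study reported as differentially methylated or expressed carry a name here, so nothing is read from which gene is named. ABCC10 was at 14.8, 13.5 and 13.1 CPM in IUHT-H 9196, 9203 and 9204 and, in IUCL-H 9202, 9214 and 9223, at 17.2, 18.8 and 20.9 CPM. Its log2 fold change was -0.46 (standard error 0.12). The 3 most opposite genes, unnamed here, had r from -0.986 to -0.984 and log2 fold changes from 0.25 to 0.43. The most opposite, ENSBTAG00000038869, had 3.61, 4.07 and 3.62 CPM in the IUHT-H and, for the IUCL-H, 3.07, 2.75 and 2.54 CPM, in the same order of heifers. The values of r describe the order of 6 heifers and say nothing of shared control.

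**Figure D5:**
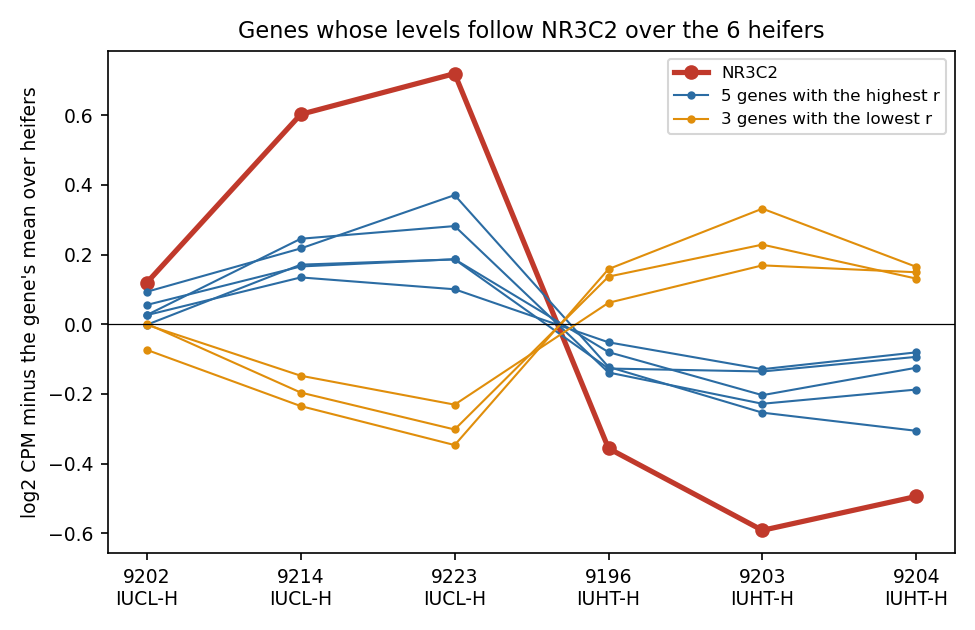
Level of NR3C2 (red), of the 5 genes with the highest r to it (blue) and of the 3 with the lowest (orange) in each heifer, as log2 CPM minus the gene's mean over the 6 heifers. Lines join the values of 1 gene and have no meaning between heifers. All lines are nearest to 0 among IUCL-H at heifer 9202, and NR3C2 has the widest range.

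Few other genes of the receptor's pathway could be followed. Of 79 genes listed for steroid receptors, ligand supply, chaperones, co-regulators, hormone-responsive genes and ion transport, 2 could be matched to an identifier, NR3C2 itself and MED1 (ENSBTAG00000013236), a subunit of the Mediator complex that nuclear receptors contact. The receptor's relative NR3C1, the sodium channel subunits and the cortisol-inactivating enzyme were not analysed here. MED1 was at 19.6, 16.3 and 20.7 CPM in IUHT-H 9196, 9203 and 9204 and, in IUCL-H 9202, 9214 and 9223, at 17.5, 22.95 and 24.4 CPM. For MED1 the groups overlapped, with -0.20 as the log2 fold change (standard error 0.16, adjusted p = 0.999 in edgeR's quasi-likelihood test). MED1, the only other pathway gene matched, was thus called neither higher nor lower, where 0.428% of all genes were called. Since most genes are not called, this says nothing about the pathway as a whole. MED1 could be matched because the paper reports it as differentially methylated in liver and mammary gland.

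Cell types were covered as thinly, since 2 of 62 marker genes could be matched. CLDN3, a tight junction gene of epithelial cells, was at 72.2, 62.4 and 85.2 CPM in IUHT-H 9196, 9203 and 9204 and, in IUCL-H 9202, 9214 and 9223, at 66.5, 86.0 and 94.1 CPM. CLDN3 overlapped between the groups, at -0.17 in log2 fold change (standard error 0.17, adjusted p = 0.999 in edgeR's quasi-likelihood test). JCHAIN, the joining chain of immunoglobulins made by plasma cells, had 142.4, 223.4 and 81.0 CPM in the IUHT-H and 37.9, 36.7 and 69.6 CPM in the IUCL-H, in the same order of heifers. JCHAIN was higher in IUHT-H without overlap, by 1.63 on the log2 scale (standard error 0.39, unadjusted P ≤ 0.01, adjusted p = 0.999 in edgeR's quasi-likelihood test). A marker could be matched only if the study reported it as differentially methylated or expressed, and the paper lists JCHAIN as upregulated in IUHT-H. Nothing is therefore read from its separation or its P. Of the 14724 genes tested, 462 were higher in IUHT-H without overlap, and 0.428% were at P ≤ 0.01 in that test in either direction. The part of plasma cells in the level of NR3C2 was not tested. The labelled tissue could not be checked against milk protein genes, as none of those listed carries a name in the tables used here.

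In RefSeq's annotation of the later assembly ARS-UCD2.0, the interval of NR3C2 overlaps those of 3 other genes, among them its protein-coding neighbour ARHGAP10 (ENSBTAG00000002531). How reads in such an overlap were counted is not given in the sources used here. ARHGAP10 was at 16.1, 20.6 and 16.6 CPM in IUHT-H 9196, 9203 and 9204 and, in IUCL-H 9202, 9214 and 9223, at 18.7, 16.9 and 16.2 CPM. The groups overlapped, and IUHT-H lay 0.04 higher on the log2 scale (standard error 0.13, adjusted p = 0.999 in edgeR's quasi-likelihood test). The same annotation lists 7 transcripts of NR3C2, 1 curated and 6 predicted, and a count per gene does not tell them apart.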

How the data were processed

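RNA of mammary biopsies from 3 IUHT-H and 3 IUCL-H was sequenced in the libraries used here, and the groups were taken from the treatment label of each heifer. The methods count 1 more IUCL-H in the study, which was not analysed here. The authors mapped the reads with TopHat2 (version 2.0.13). HTSeq is also named in the submitters' processing notes, and these name the genome UMD3.1 where the methods name bosTau7. The deposited values are whole-number read counts for 24579 Ensembl genes, not normalized, and genes without a count are included. The counting mode is not given in the sources used here.

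Genes with low counts were removed with filterByExpr of edgeR (version 4.0.16, R 4.3.3), which left 14724 genes, and libraries were scaled by TMM. The group difference was tested by edgeR's quasi-likelihood F-test over all 6 heifers without covariates, with Benjamini-Hochberg adjustment over the genes kept. The standard error is the log2 fold change divided by the square root of F. The ranking used log2 CPM with a prior count of 2 and the pooled within-group SD. At the totals given, 3 counts are 0.0296 to 0.0396 CPM. The fit was tested on simulated data. DESeq2 (version 1.42.0) was one of the alternatives.

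Gene names were taken from identifier and name pairs in the study's supplementary tables, and the RefSeq table has no Ensembl identifiers. Those pairs cover genes that the study reported as differentially methylated or differentially expressed. Named were NR3C2, pathway and marker genes that could be matched, the 5 genes with the highest and 3 with the lowest r to NR3C2, and the 3 genes on either side of it in rank. The identifiers of unnamed genes were printed only in part. BOLA and ARHGAP10 were chosen after their values were seen. The gene and the lists were chosen with earlier results of these data known. Other divisions of the 6 heifers were not computed. No 2 of the 6 files were identical.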

Additional observations from a re-analysis of the deposited data

How the results depend on the processing

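The log2 fold change of NR3C2 moved by less than the within-group SD in all 18 alternatives. The rank of NR3C2 by change over SD was 99 when every gene with at least 1 count was kept and 113 on CPM without a logarithm, against 57 as reported, and it ran from 27 to 468 when each heifer was left out; under the other 8 alternatives for it, it stayed within 1.5 times. The number of genes at P ≤ 0.01 rose from 63 to 108 in edgeR's exact test, 112 in its likelihood ratio test and 124 in DESeq2, and ran from 38 (without IUCL-H 9214) to 246 (without IUCL-H 9202) when each heifer was left out, with 225 without IUHT-H 9204. With library size only, Pearson's r between NR3C2 and the share of the 10 most abundant genes was 0.027 in place of 0.43. The cause of these shifts was not tested. The share itself stayed lower on average in IUHT-H for the 5 or 20 most abundant genes and without each heifer, but its size moved, from -5.45 points without IUHT-H 9204 and -3.87 without IUCL-H 9202 to -0.448 without IUHT-H 9203. The difference was -1.002 without IUHT-H 9196, -1.42 without IUCL-H 9214 and -1.61 without IUCL-H 9223, against -2.30 with all heifers. MED1 passed in neither direction under any of the 17 fits run for it.

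The alternatives on CPM without a logarithm, a prior count of 0.5, genes with a mean of at least 1 CPM and the share as a covariate were chosen after the data were seen. With 3 heifers a group, no exact permutation test over heifers can go below 0.1. No paired analysis was possible because the labels give the heifers no shared numbers.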

Other observations

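Ratios of raw counts within a library do not depend on the scaling of libraries, and they were formed after the data were seen, with the 3 other named genes described above whose groups overlapped. The ratio of NR3C2 to the epithelial gene CLDN3 was 0.181, 0.178 and 0.139 in IUHT-H 9196, 9203 and 9204, and 0.273, 0.295 and 0.293 in IUCL-H 9202, 9214 and 9223. In this ratio heifer 9202 lay close to the other IUCL-H, where its TMM-normalized CPM of NR3C2 had been well below theirs. The ratio to MED1 was 0.641 ± 0.0577 in IUHT-H and 1.09 ± 0.0477 in IUCL-H (SD, n = 3 per group), and 9202 was again close to its group at 1.04. The ratio to the neighbouring gene ARHGAP10 was 0.689 ± 0.14 in IUHT-H and 1.39 ± 0.374 in IUCL-H, and here 9202, at 0.974, remained apart from the other IUCL-H. The groups did not overlap in any of these 3 ratios. They rest on the same NR3C2 counts that chose the gene and were not tested.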
